A study of Mus musculus with 12 samples.

Results

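Major histocompatibility complex (MHC) class I and the genes that load it with peptide were followed on 12 Affymetrix mouse arrays of thymocytes from reaggregate thymic organ culture (RTOC), in which thymocytes are mixed with thymic stroma and cultured, here to day 6. The 3 groups of 4 arrays were HY_high, thymocytes with the HY T cell receptor and Smcy peptide at 1e-05 M, HY_low, the same receptor with Smcy peptide at 1e-07 M, and OT1, thymocytes with the OT1 receptor and no peptide named in the labels. The HY receptor sees a male antigen, a peptide of the Smcy protein, and OT1 sees a peptide of chicken ovalbumin, each on class I. The labels state neither the strain, MHC haplotype, age or sex of the mice, nor the source of the stroma, nor whether cells were sorted, so receptor, peptide and any such difference cannot be told apart in the comparisons with OT1. Titles of the HY_high and HY_low arrays also carry different letters, aa and ab, from which dose cannot be told apart.

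The family was taken as all probe sets whose platform gene symbol is H2-K1, H2-D1, H2-T23, B2m, Tap1, Tap2, Tapbp, Psmb8, Psmb9 or Psmb10. Of the 10 symbols 9 had a probe set annotated to that gene alone, 16 probe sets of 12422 in all. H2-T23 had none, and 4 further probe sets that list a member among several genes are described separately. All 16 lay above the filter on dim probe sets, which kept 8695. The genes were selected on measured values, since it was known that the probe sets of H2-K1 disagree between HY_low and OT1, so the H2-K1 comparisons with OT1 are given as a description, without a test.

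Class I molecules show peptides from inside the cell to CD8 T cells. The peptides are cut by the proteasome, whose inducible subunits Psmb8, Psmb9 and Psmb10 replace constitutive ones in the immunoproteasome, and are pumped into the endoplasmic reticulum by the Tap1 and Tap2 transporter. Tapasin (Tapbp) holds the empty heavy chain and beta-2 microglobulin (B2m) at the transporter until a peptide fits. Interferons and NF-kappaB induce most of these genes, and thymocytes at the double-positive stage are known to carry less class I than mature T cells.

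In the RefSeq annotation of GRCm38.p6, 8 of the 10 genes lie on chromosome 17, B2m lies on chromosome 2 and Psmb10 on chromosome 8. Upstream sequences are shown for the heavy chains H2-K1 and H2-D1 and for B2m, because these are the chains of the class I molecule itself, and for the stretch between Tap1 and Psmb9, which face away from each other. Capitals mark matches, on either strand, to a loose kappaB motif (GGGNNNNNCC), the core of interferon regulatory factor sites (AANNGAAA), a cyclic AMP response half-site (TGACG) and the CCAAT box (CCAAT), which is the Y box of class I promoters. Neighbouring kappaB matches overlap, so some capital runs hold more than 1 match.
H2-K1 upstream, chr17:34000350-34000474, minus strand: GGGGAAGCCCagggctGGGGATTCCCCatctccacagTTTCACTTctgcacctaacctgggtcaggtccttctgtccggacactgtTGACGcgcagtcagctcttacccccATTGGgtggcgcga
H2-D1 upstream, chr17:35262907-35263031, plus strand: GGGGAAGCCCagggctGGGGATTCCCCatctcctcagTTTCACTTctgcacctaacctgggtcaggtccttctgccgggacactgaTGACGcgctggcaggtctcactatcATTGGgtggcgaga
B2m upstream, chr2:122147550-122147649, plus strand: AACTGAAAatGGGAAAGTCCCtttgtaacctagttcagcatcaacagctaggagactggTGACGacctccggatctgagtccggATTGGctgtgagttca
Between Psmb9 and Tap1, chr17:34187331-34187555, plus strand: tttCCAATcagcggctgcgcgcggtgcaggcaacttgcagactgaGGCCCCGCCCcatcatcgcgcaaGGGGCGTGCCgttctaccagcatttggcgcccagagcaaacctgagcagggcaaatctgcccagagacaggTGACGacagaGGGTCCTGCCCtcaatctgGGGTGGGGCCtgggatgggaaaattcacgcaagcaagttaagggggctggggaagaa

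The H2-K1 and H2-D1 stretches of 125 bases were identical at 113 positions, 90.4%, and held all 4 motifs in the same order. The annotated H2-K1 gene extends upstream of the start used here. B2m held the same 4 motifs, with the interferon core ahead of the kappaB match, and the 225 bases between Tap1 and Psmb9 held all but the interferon core. In the 250 bases before the start, 5 of the 9 members with a window had a kappaB match, 4 an interferon core, 5 a TGACG and 7 a CCAAT match. Of 27018 such windows of all genes 45.4%, 21.6%, 17.9% and 34.5% held them. The Tap1 and Psmb9 windows share the 225 bases between these genes, so their matches are the same sites counted for both. The 9 windows are thus not separate sequences. Each match is of letters only, and no match was found for Psmb8 or Psmb10. Tap2 has no window in the table.

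H2-K1 encodes the class I heavy chain K, and its 3 probe sets gave different answers. On 97700_at, HY_high arrays 1 to 4 had intensities of 53.15, 2.42, 80.34 and 10.82, HY_low arrays 52.98, 7.44, 35.26 and 34.55, and OT1 arrays 6.16, 1, 4.46 and 1.46. Every HY_low array lay above every OT1 array, while array 2 of HY_high fell inside the OT1 range. The value of 1 is the lowest in the table, and the geometric means were 18.3 in HY_high, 26.3 in HY_low and 2.52 in OT1. In these bulk samples a change in the share of a cell type and a change in RNA per cell cannot be told apart.

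This is a log2 difference of 3.39 between HY_low and OT1 and of 2.86 between HY_high and OT1. Within array numbers it was 3.10, 2.90, 2.98 and 4.56 for HY_low and 3.11, 1.28, 4.17 and 2.89 for HY_high, all above 0. With intensities under 8 set to 8 the differences were 1.74 and 1.62, so part of their size lies in dim OT1 values.

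The other H2-K1 probe sets, of a type that can read several genes of a family (suffix f), showed smaller differences. On 93120_f_at the intensities were 1016, 907, 831 and 772 on the HY_high arrays, 987, 622, 638 and 582 on the HY_low arrays, and 1841, 407, 388 and 378 on the OT1 arrays. On this probe set OT1 array 1 was the highest of the 12 and the other 3 OT1 arrays the lowest. Its log2 differences were 0.26 for HY_low and 0.61 for HY_high against OT1, and without the arrays numbered 1 they were 0.65 and 1.10.

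On 97125_f_at the intensities were 23.04, 57.17, 54.37 and 50.52 in HY_high, 29.55, 19.08, 46.32 and 39.95 in HY_low, and 31.57, 24.75, 25.72 and 24.79 in OT1. HY_high arrays 2 to 4 lay above all OT1 arrays and array 1 below them. The log2 differences from OT1 were 0.27 for HY_low and 0.72 for HY_high.

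**Figure D1:**
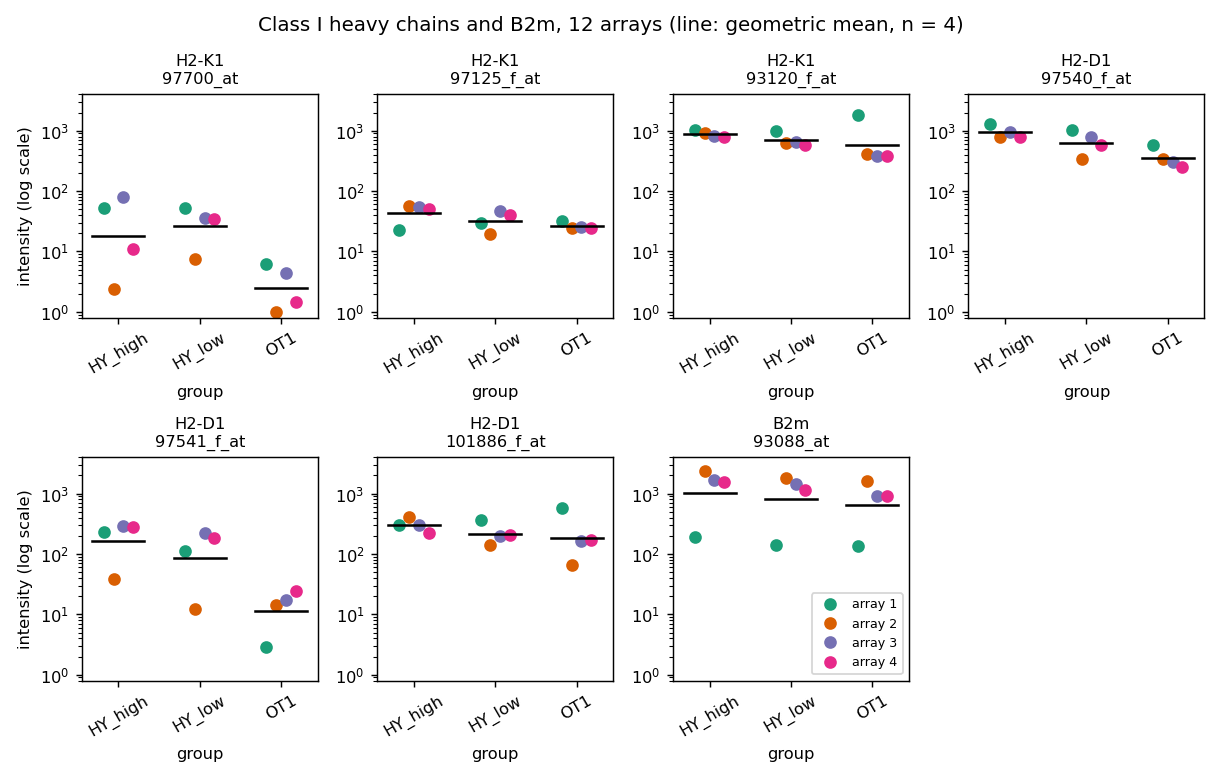
Intensity (log axis) of each H2-K1, H2-D1 and B2m probe set on the 12 arrays, coloured by array number, with the geometric mean of 4 arrays as a line for HY_high, HY_low and OT1. The geometric mean is lowest in OT1 on every panel, and B2m is low on array 1 of every group.

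H2-D1, the class I heavy chain D, which presents the Smcy peptide in mice of the b haplotype, was higher in HY_high than in OT1 on each of its 3 probe sets. All 3 have the suffix f and can read several genes of the family, so their values may not be those of H2-D1 alone. On 97541_f_at HY_high arrays 1 to 4 had 235.33, 37.89, 293.88 and 281.60, HY_low arrays 112.44, 12.29, 225.48 and 184.97, and OT1 arrays 2.85, 14.19, 17.38 and 24.27. All 4 HY_high arrays lay above all OT1 arrays, and so did HY_low arrays 1, 3 and 4. Array 2 was the lowest of its group in both HY groups, and HY_low array 2 lay inside the OT1 range.

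The geometric means on this probe set were 165 in HY_high, 87.1 in HY_low and 11.4 in OT1. The log2 difference between HY_high and OT1 was 3.85 ± 0.88 (SE, n = 4 per group, 14.4-fold) and did not pass with limma over all tested probe sets (adjusted p = 0.167). Same-numbered arrays resemble each other across groups, and with the number as a block it passed (adjusted p = 0.00209). Number 2 had the smallest difference within numbers, 1.42, and leaving it out was chosen after seeing the data. Without the arrays numbered 2 the difference was 4.66 (limma adjusted p = 0.0326 without the block, given as description only). Between HY_low and OT1 it was 2.93 ± 0.88 (adjusted p = 1.0, or 0.0823 with the block), at 5.30, -0.21, 3.70 and 2.93 within numbers 1 to 4.

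On 97540_f_at HY_high arrays had 1309, 780, 959 and 784, HY_low arrays 1028, 335, 792 and 578, and OT1 arrays 577, 339, 307 and 251. The 4 HY_high arrays lay above every OT1 array, while HY_low array 2 lay among the OT1 arrays. The log2 difference between HY_high and OT1 was 1.42 ± 0.43 (limma adjusted p = 0.490, and 0.00209 with the number as a block), close to the same within each number, at 1.18, 1.20, 1.64 and 1.64. HY_low differed from OT1 by 0.85 ± 0.43 (adjusted p = 1.0, or 0.202 with the block).

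The third H2-D1 probe set, 101886_f_at, had 301, 415, 301 and 224 in HY_high, 365, 141, 201 and 210 in HY_low, and 573, 66.85, 167 and 169 in OT1. The groups overlapped, with OT1 array 1 the highest value and OT1 array 2 the lowest of all 12. The log2 differences from OT1 were 0.74 ± 0.54 in HY_high (limma adjusted p = 1.0, and 0.433 with the number as a block) and 0.25 ± 0.54 in HY_low (adjusted p = 1.0). On each of the 3 H2-D1 probe sets the order of the geometric means was HY_high, HY_low, OT1, in which the neighbours did not pass a test.

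B2m, the light chain that every classical class I molecule needs, had 192, 2376, 1654 and 1538 in HY_high, 142, 1843, 1444 and 1163 in HY_low, and 134, 1600, 922 and 919 in OT1. Array 1 lay far below the others in every group, and within each number the order was HY_high, HY_low, OT1. Geometric means were 1038, 814 and 653. HY_high exceeded OT1 by 0.67 on the log2 scale, with a SE of 0.90 over all arrays (limma adjusted p = 1.0) and of 0.17 with the number as a block (adjusted p = 0.0690). The differences within numbers 1 to 4 were 0.52, 0.57, 0.84 and 0.74.

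Tap1 and Tap2 form the peptide transporter. Tap1 on 103035_at had 60.72, 86.46, 59.89 and 69.35 in HY_high, 75.60, 64.07, 48.50 and 101 in HY_low, and 40.83, 36.73, 55.04 and 58.51 in OT1. HY_high did not overlap OT1, while HY_low did through array 3. The log2 differences from OT1 were 0.54 ± 0.38 in HY_high and 0.57 ± 0.38 in HY_low, neither of which passed (limma adjusted p = 1.0 for both, or 0.393 and 0.516 with the block).

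The other Tap1 probe set, 162278_r_at, lay between 1 and 4.72 on all 12 arrays, was lower in both HY groups (log2 differences of -1.04 in HY_high and -0.93 in HY_low, adjusted p = 1.0 for both) and could not be compared with the floor at 8. Tap2 had 188, 33.83, 63.35 and 28.19 in HY_high, 194, 34.08, 71.89 and 14.47 in HY_low, and 185, 14.27, 44.49 and 12.07 in OT1. Its arrays numbered 1 had nearly the same value in all groups, and the other numbers carried the log2 difference between HY_high and OT1 of 0.75 ± 0.87 (limma adjusted p = 1.0, and 0.221 with the number as a block).

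Tapbp, the loading chaperone, had 161, 150, 535 and 183 on 100154_at in HY_high, 127, 51.44, 497 and 239 in HY_low, and 111, 34.50, 283 and 171 in OT1. Array 3 was the highest in each group. The log2 difference between HY_high and OT1 was 0.92 ± 0.70 (limma adjusted p = 1.0, and 0.131 with the number as a block), and it was above 0 within all 4 numbers. On 102689_at, between 3.68 and 14.86 on all arrays, HY_high did not overlap OT1 (geometric means of 9.38 and 4.71, log2 difference 0.99 ± 0.42, adjusted p = 1.0), but with the floor at 8 the difference was 0.27. On 162104_f_at the geometric means were 27.3 in HY_high, 31.96 in HY_low and 27.9 in OT1, and the log2 difference of HY_high from OT1 was -0.03.

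**Figure D2:**
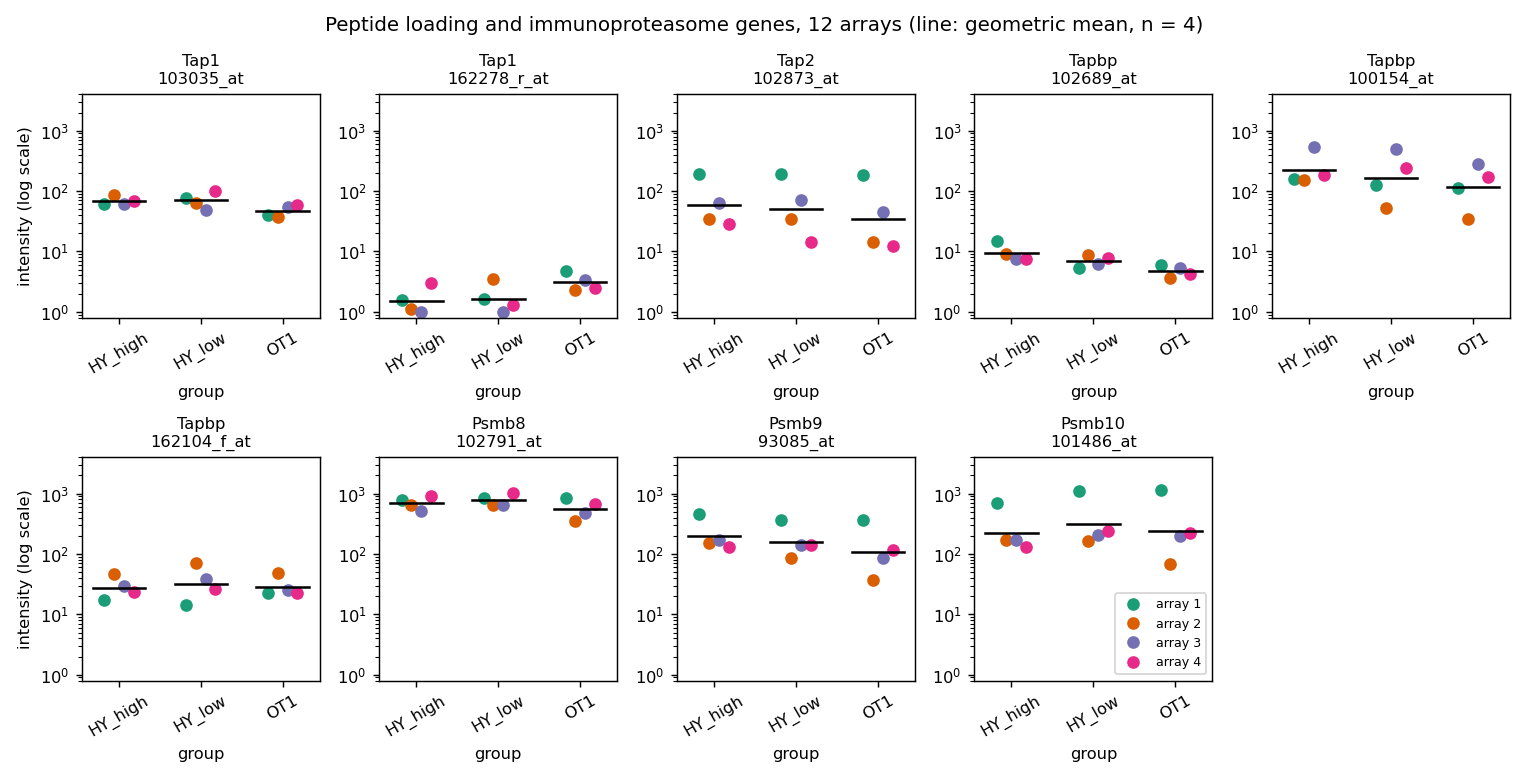
Intensity (log axis) of the Tap1, Tap2, Tapbp, Psmb8, Psmb9 and Psmb10 probe sets on the 12 arrays, coloured by array number, with the geometric mean of 4 arrays as a line. For Tap2, Psmb9 and Psmb10 array 1 is the highest of each group, and the groups overlap on every panel except for HY_high against OT1 on Tap1 103035_at and Tapbp 102689_at.

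None of the 3 immunoproteasome subunits passed a test, with or without the block. Psmb8 (LMP7, chymotrypsin-like) had 770, 648, 523 and 896 in HY_high, 853, 654, 638 and 1033 in HY_low, and 842, 354, 481 and 682 in OT1. Psmb9 (LMP2) had 464, 150, 167 and 129 in HY_high, 371, 85.00, 143 and 140 in HY_low, and 369, 36.68, 85.17 and 116 in OT1. Psmb10 (MECL-1) had 707, 168, 169 and 130 in HY_high, 1125, 165, 204 and 243 in HY_low, and 1147, 68.94, 201 and 226 in OT1. All 3 overlapped between groups, and OT1 array 2 was the lowest of the 12 on each.

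For Psmb9 the log2 difference of HY_high from OT1 was 0.87 ± 0.64 (limma adjusted p = 1.0, and 0.122 with the number as a block), positive within all 4 numbers. For Psmb8 HY_low stood 0.48 ± 0.39 above OT1, also within 4 of 4 numbers (adjusted p = 1.0, or 0.485 with the block), and HY_high 0.31. Psmb10 showed the smallest difference of the 3, at -0.11 ± 0.77 in HY_high and 0.34 ± 0.77 in HY_low against OT1 (adjusted p = 1.0 for both).

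Counted together, 0 of the 16 probe sets passed limma without the block between HY_high and OT1, where 0.173% of all tested probe sets did. At an unadjusted p under 0.05 there were 4, all higher in HY_high (97540_f_at, 97541_f_at, Tapbp 102689_at and 97700_at, of which the last is set aside), against 4.08% of all tested in either direction. With the block 3 of the 16 passed, all higher in HY_high, against 1.36% of all tested probe sets. They were 97540_f_at and 97541_f_at of H2-D1 and 97700_at of H2-K1, and from the last nothing is read. HY_high lay above OT1 without overlap in 4 of 16 (1.52% of all tested) and within all 4 numbers in 9 of 16 (10.4%), while 0 were lower within all 4 numbers (8.74%). The 9 include H2-K1 97700_at, which counts as description only.

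The median log2 difference between HY_high and OT1 was 0.73 over the 16 probe sets and 0.02 over all 8695, with 13 of 16 above 0 against 51.4% of all. Without the H2-K1 probe sets, which are description only, the members' median was 0.74, with 10 of 13 above 0. The highest member value was that of H2-D1 97541_f_at. Without OT1 array 2 the members' median was 0.39, without all arrays numbered 2 it was 0.50, and without those numbered 1 it was 1.02.

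For HY_low against OT1 0 of 16 passed limma (0.023% of all tested) and 1 with the block (0.092%), which was H2-K1 97700_at and counts as description only. At an unadjusted p under 0.05 there were 2, where 2.65% of all tested probe sets were, but 1 of them is 97700_at, so only H2-D1 97541_f_at remains and nothing is read from the count. The groups did not overlap for 97700_at alone (0.886% of all tested probe sets), which is likewise a description. Within all 4 numbers 6 of 16 were higher (9.73%) and 0 lower (7.38%). The 6 include 97700_at, which counts as description only. The median was 0.50 over the members and 0.01 over all tested probe sets, with 15 of 16 above 0 (51% of all tested). Without the H2-K1 probe sets, which are description only, the members' median was 0.51, with 12 of 13 above 0. Without OT1 array 2 the members' median was 0.25, with 12 of 16 above 0, and without OT1 array 1 it was 0.74. The comparisons with OT1 share the same 4 OT1 arrays, so their values are given side by side and not as 2 separate sets of evidence.

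Between the 2 peptide doses no member probe set passed a test. Of the 16 probe sets 0 passed limma (0.023% of all tested), 0 did with the block (0.345%), and 0 had an unadjusted p under 0.05 (2.96%). HY_high lay above HY_low without overlap in 0 of 16 (1.24%). HY_high exceeded HY_low within all 4 numbers for B2m, H2-D1 97540_f_at and 97541_f_at and H2-K1 93120_f_at, 4 of 16 against 9.81% of all tested. The log2 differences were 0.35 ± 0.90 for B2m, 0.57 ± 0.43 and 0.92 ± 0.88 for the H2-D1 probe sets, and 0.34 ± 0.48 for the H2-K1 probe set (limma adjusted p = 1.0 for all 4, and 0.337 or more with the block).

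Psmb8 was lower in HY_high than in HY_low within all 4 numbers (-0.16 ± 0.39), 1 of 16 against 9.76% of all tested. H2-K1 97700_at had the most negative difference of the members at -0.53 ± 0.94 (adjusted p = 1.0). Over the members the median was 0.33 and the range -0.53 to 0.92, with 10 of 16 above 0, against a median of 0.01 and 51.3% above 0 over all tested probe sets. The members' median rested on single arrays, at 0.12 and 0.13 when array 1 or array 3 of HY_high was left out and 0.086 when array 2 of HY_low was. It was 0.14 without all arrays numbered 2. These intervals are wide, and a missed threshold does not show that the doses gave the same level.

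**Figure D3:**
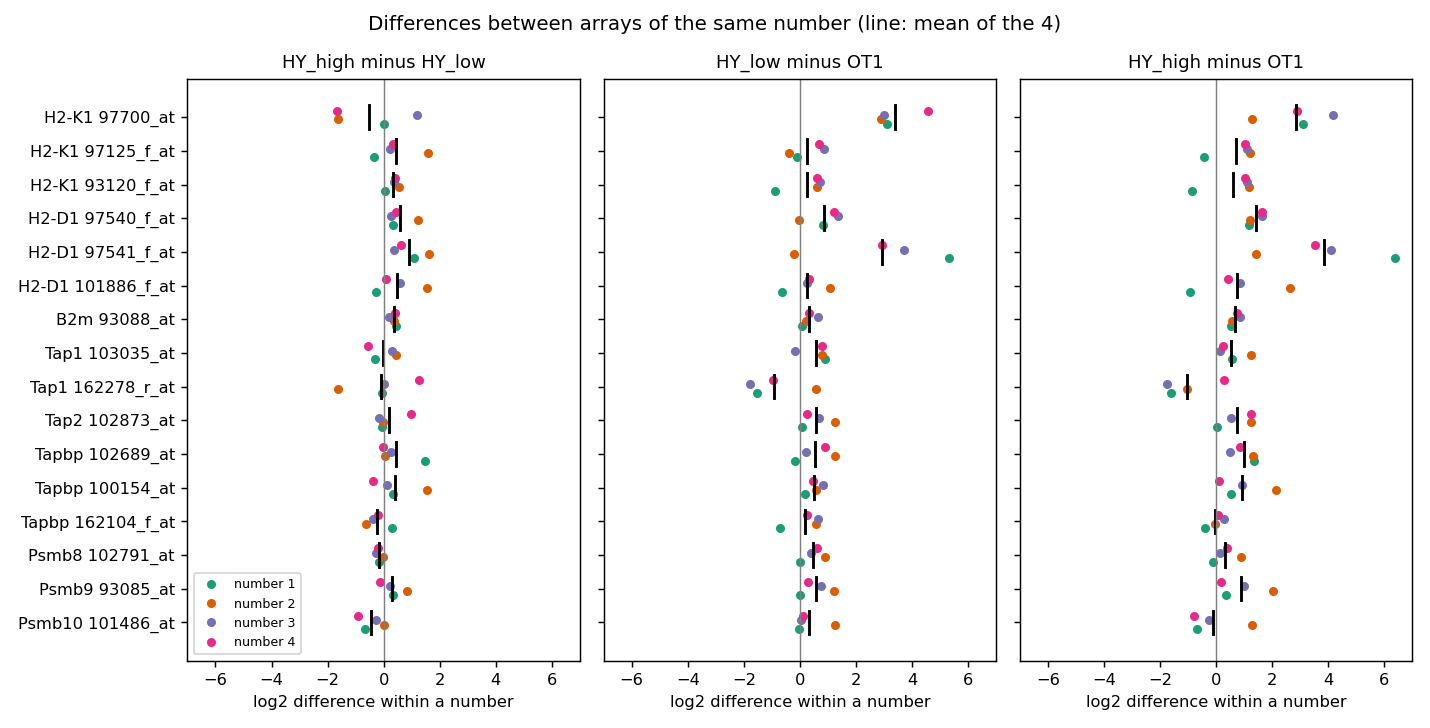
Log2 differences of the 16 probe sets between arrays of the same number (points, 1 per number) and their mean (line), for HY_high minus HY_low, HY_low minus OT1 and HY_high minus OT1. The widest departures from 0 are those of H2-K1 97700_at and H2-D1 97541_f_at against OT1, and number 2 stands apart on the latter.

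Array number shaped several members more than the group did. The share of the sum of squares of log2 intensity that lay between numbers was 96.1% for B2m, 90.9% for Tap2, 88.9% for Psmb10 and 76.8% for Psmb9, where the share between groups was 3.57%, 5.28%, 2.58% and 13.4%. B2m had a geometric mean of 154 over the arrays numbered 1 and of 1180 to 1914 over the other numbers, 12.4-fold from lowest to highest. Psmb10 ran the other way, at 970 over the arrays numbered 1 and 124 to 193 over the others. Tap2 had 189 over the arrays numbered 1 and 17.01 to 58.7 over the others. Genes of 1 pathway thus stood at opposite ends of their ranges on the same arrays.

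The share between groups was the larger for 7 of the 16. They were H2-D1 97540_f_at and 97541_f_at (60.9% and 58.6%), Tapbp 102689_at (61.1%), H2-K1 97700_at and 97125_f_at (51.1% and 32.3%) and Tap1 103035_at and 162278_r_at (43.4% and 39.3%). The H2-K1 probe sets among them count as description only, since their share between groups includes the difference from OT1. The share between numbers was the larger for the other 9, and for 84.0% of all tested probe sets. The median share between numbers was 46.9% over the members and 52.8% over all tested probe sets. What the numbers mark is not stated in the labels. Arrays numbered 2 also had the highest 3' to 5' ratio of Gapdh control probe sets, at log2 values of 5.6 in HY_high, 5.78 in HY_low and 6.26 in OT1, against 2.95 to 5.48 on the other arrays. The share of values at 1 among the arrays numbered 2 was 3.0% in HY_high, 5.18% in HY_low and 19.0% in OT1. Array 2 was the lowest array of each HY group on H2-D1 97541_f_at and H2-K1 97700_at. It was the highest of HY_high on H2-D1 101886_f_at and H2-K1 97125_f_at, at 415 and 57.17. The part of the Gapdh ratio and of the values at 1 in these levels was not tested.

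**Figure D4:**
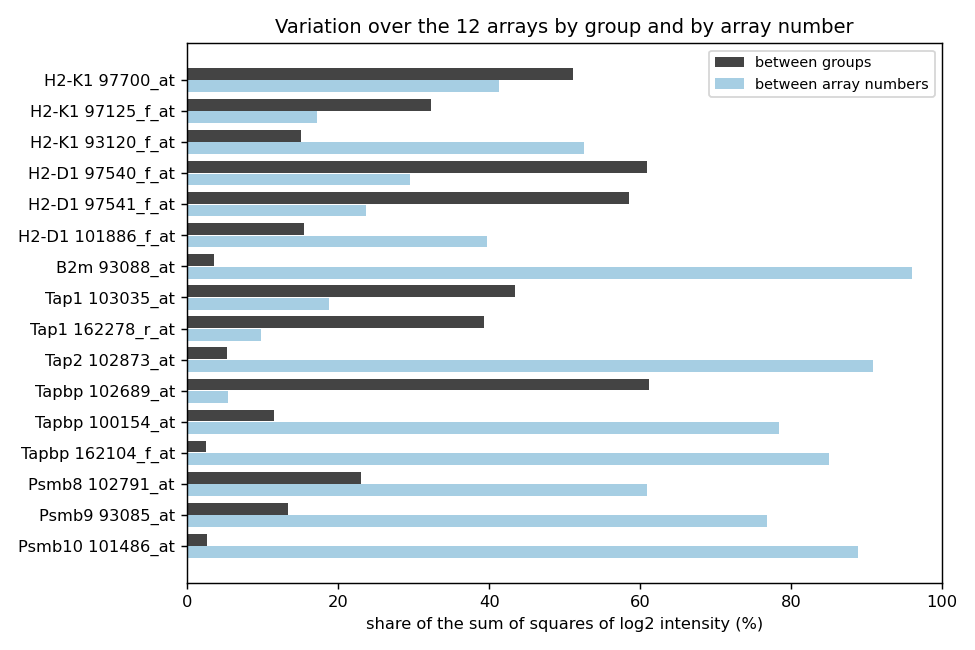
Share (%) of the sum of squares of log2 intensity over the 12 arrays that lies between the 3 groups (dark bars) and between the 4 array numbers (light bars) for each of the 16 probe sets. B2m, Tap2 and Psmb10 vary mainly by number, and H2-D1 97540_f_at and 97541_f_at mainly by group.

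Probe sets that list a member among several genes give no level for 1 gene. The probe set 98472_at, which lists H2-T23 and H2-T-ps, had 94.38, 130, 143 and 108 in HY_high, 93.80, 93.66, 155 and 177 in HY_low, and 115, 47.37, 148 and 120 in OT1. Its groups overlapped, and the log2 difference of HY_high from OT1 was 0.24 ± 0.42 (limma adjusted p = 1.0). The probe set 102161_f_at, which lists 10 class I genes and pseudogenes including H2-K1 and H2-D1, differed by 0.81 ± 0.46 (adjusted p = 1.0), and 97174_r_at, with 4 genes, by 0.72 ± 0.76 (adjusted p = 1.0). The last of them, 95773_at, lay between 1 and 3.96 and was not tested.

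The wider pathway was read from 5 lists. Of 16 tested probe sets of other class I heavy chains 0 passed in any comparison, with or without the block, and their median log2 difference between HY_high and OT1 was 0.21. The 3 genes with the largest differences there were Cd1d2, a lipid-presenting class I relative, H2-M3, which presents formylated peptides, and H2-Q4. H2-M3 had log2 differences from OT1 of 0.65 in HY_high and 0.92 in HY_low on 102731_g_at and of 0.96 and 0.60 on the dim 102730_at. H2-Q4 had 0.95 and 0.39, and Cd1d2, with geometric means of 1.63 in HY_high, 2.51 in HY_low and 1.34 in OT1, had 0.29 and 0.91.

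Among 17 probe sets of loading chaperones, trimming enzymes and translocon subunits 0 passed, and the largest differences were those of Pdia3 (ERp57, the oxidoreductase of the loading complex, 1.04 between HY_high and OT1), Sec61b (0.83) and Ganab (0.87 between HY_high and HY_low). The constitutive proteasome and its activators, 22 probe sets, gave 0 calls and a median of -0.15 between HY_high and OT1. In that comparison the immunoproteasome subunits Psmb8, Psmb9 and Psmb10 had 0.31, 0.87 and -0.11. The 3 genes with the largest differences in the constitutive list were Psmb5, Psmb7 and Psmb1. Psmb5, which Psmb8 replaces, had -0.89 between HY_high and HY_low on the dim 160559_at, but 0.24 on 101558_s_at. Psmb7, which Psmb10 replaces, had 0.71 between HY_high and HY_low and -0.75 between HY_low and OT1. Psmb1 had 0.66 between HY_low and OT1 on the dim 161923_at, but 0.065 and -0.0046 on the brighter 160875_at and 98113_at.

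Of 13 tested probe sets of transcription factors that act on class I genes, 0 passed without the block in any comparison. With the block 1 passed, between HY_high and OT1, where 1.36% of all tested probe sets did. It was Irf9, the DNA-binding subunit of the type I interferon factor ISGF3. Irf9 had a geometric mean of 114 in HY_high, 103 in HY_low and 49.0 in OT1, and the log2 difference of HY_high from OT1 was 1.22 (limma adjusted p = 0.942, and 0.0275 with the number as a block). Irf8 had 1.10 in the same comparison (adjusted p = 1.0, or 0.162 with the block). The 3 probe sets of Creb1 all lay under a geometric mean of 3, with differences from -0.75 to 0.57.

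The interferon response list had 27 tested probe sets, of which 0 passed without the block in any comparison, and 7 rose with it between HY_high and OT1, where 1.36% of all tested probe sets passed in either direction. Its median log2 difference from OT1 was 1.33 in HY_high and 0.61 in HY_low. The 7 genes were Usp18 (3.27), Iigp1 (2.93), Ifit1 (2.43), Isg15 (2.26), Gbp3 (1.56), Ifi204 (1.54) and Igtp (1.43), with limma adjusted p from 0.00145 to 0.0354 with the block and from 0.0586 to 1.0 without it. Iigp1 and Ifi204 each had another probe set, at 1.37 and 0.14, that did not pass. Several were dim in OT1, with Iigp1 96764_at at 1.53 and Ifit1 at 3.94 in geometric mean. With intensities under 8 set to 8 the log2 differences were 0.69 for Iigp1, 1.26 for Ifit1, 2.62 for Usp18, 1.86 for Isg15, and 1.41, 1.42 and 1.43 for Gbp3, Ifi204 and Igtp.

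T lineage markers were present, with 11 of 12 measured genes above a geometric mean of 8 in every group, and their summed intensity was 1467 to 2532 in HY_high, 2609 to 3181 in HY_low and 2126 to 2666 in OT1. With the block 2 of the 15 tested probe sets of this list were lower in HY_high than in OT1, and 1 lower than in HY_low. Of all tested probe sets 1.36% and 0.345% passed in these comparisons, in either direction. Thy1, a surface protein of T cells, had a geometric mean of 234 in HY_high, 555 in HY_low and 541 in OT1, with log2 differences of HY_high of -1.24 from HY_low and -1.21 from OT1 (limma adjusted p = 0.0126 and 0.00564 with the block, 1.0 and 0.788 without it). Cd2, an adhesion receptor, had 95.5, 203 and 197, with a difference from OT1 of -1.05 (limma adjusted p = 0.0402 with the block, 1.0 without it). Thymic epithelial markers were near the bottom of the scale, with 0 of 13 genes above 8 in HY_high and in HY_low and 1 in OT1, and summed to 34.1 to 53.6, 36.3 to 53.1 and 31.8 to 44.2. Fibroblast markers had 2 of 10 above 8 in each group and summed to 43.9 to 84.1, 57.1 to 94.7 and 51.6 to 72.7.

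Macrophage and dendritic cell markers, 2 of 20 above 8 in each group, summed to 176, 614, 507 and 390 on HY_high arrays 1 to 4, 172, 644, 326 and 308 on HY_low arrays, and 147, 371, 250 and 170 on OT1 arrays. The sum was higher in both HY groups than in OT1 within each number, and most of it came from Ctss, a protease also found in other cells. Of the 17 tested probe sets of this list 10 were higher in HY_high than in OT1 (51.4% of all tested), with a median log2 difference of 0.04. For HY_low it was also 10 of 17 (51% of all tested), with a median of 0.30. In geometric mean Ctss lay at 296 in HY_high, against 148 in OT1, a log2 difference of 1.0, and was the 1 marker of the list to pass with the block (limma adjusted p = 0.0275, and 1.0 without it). Of the 20 genes 7 in HY_high, 5 in HY_low and 10 in OT1 had a geometric mean of at most 2, among them Adgre1 and Itgam in every group. Lyz2 and Apoe reached 4.57 and 5.61 in HY_low. B cell markers summed to 161 to 535 in HY_high, 83.8 to 637 in HY_low and 93.6 to 1013 in OT1 (8 genes). The sum was highest on array 1 of each group, where most of it came from Ighm, at 461 in HY_high, 593 in HY_low and 987 in OT1. Not every other B cell marker was highest on array 1. Of 7 NK cell markers 2 were measured, with neither above 8 in any group, and they summed to 3.05 to 4.82 in HY_high, 2.47 to 3.98 in HY_low and 4.47 to 11.8 in OT1. The part of any of these cells in the class I values was not tested.

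By Pearson's correlation over the 12 arrays, the probe sets most like the mean profile of the members other than H2-K1, among 7702 candidates, were Gna12 (0.92), Itm2c (0.91), Usp18 (0.91), Lrrfip2 (0.91) and Mx2 (0.89). Usp18 and Mx2 are interferon-induced. For H2-K1 97700_at they were Mx2 (0.92), Slc9a3r1 (0.87), Sdc4 (0.87), Cenpv (0.86) and Sh3d19 (0.85). For 93120_f_at they were H2-Q4 (0.92), Anxa4 (0.89), Stat3 (0.87), Isg15 (0.87) and H2-Bl (0.86), and for 97125_f_at Hccs (0.90), Oas1g (0.89), Ppp3cb (0.89), Gfi1 (0.88) and Mdfic (0.88). The 3 H2-K1 probe sets shared no gene in these lists. The arrays share their numbers, so these values describe likeness on these 12 arrays and nothing more.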

How the data were processed

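The authors deposited 1 table of intensities on a linear scale for 12488 probe sets. Their background correction, summary over probes and scaling are not stated in the labels. The lowest value is 1, which 15.3% of the values take, and array medians run from 3.33 to 3.97, so intensities were used as deposited on a log2 scale. The 66 control probe sets were left out, and only probe sets with a mean above the 30th percentile, an intensity of 1.76, entered the tests. Of 12422 probe sets 10833 had 1 symbol in the platform annotation, 396 several and 1193 none. Symbols were checked against RefSeq by gene ID (10817 matched, 0 changed).

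A limma fit (version 3.58.1, R 4.3.3) with a mean per group over all 12 arrays, 9 residual degrees of freedom and a variance trend gave two-sided p-values, adjusted by Benjamini-Hochberg over 8695 probe sets at a threshold of 0.05. The code was tested on simulated data. Adjusted p-values given as 1.00 are rounded. Deviations from group means correlated from 0.341 to 0.593 between same-numbered arrays of different groups (12 pairs) and from -0.40 to 0.163 otherwise (36 pairs). Every same-numbered pair was above 0.1 and above all the other pairs. The numbers were therefore taken to pair the arrays, which the labels leave unsaid. The blocked fit had 6 residual degrees of freedom. At most 0.150% of values above 8 were equal between any 2 arrays. The labels do not say that arrays came from separate cultures, so p-values measure the spread between arrays, whose number limits precision. Levels are geometric means.

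Members and lists were chosen with earlier results of these data known. All member probe sets are named. Of each pathway list the text names genes past the threshold in any comparison, with or without the block, and the 3 with the largest differences. Each marker was represented by its brightest probe set. Alternatives were the block, no filter, a floor at 8, quantile and median scaling, array weights, no variance trend, fits of 2 groups, and leaving out arrays. Sequences are from RefSeq (GRCm38.p6), and 9 of 10 genes matched.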

Additional observations from a re-analysis of the deposited data

Results flagged for a closer look

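In 7 of the 48 sets of 4 arrays (16 probe sets in 3 groups) 1 array stood apart from the other 3 by Dixon's criterion, which chance alone meets in about 1 of 20. Array 1 was the one apart in 4 of the 7. H2-K1 93120_f_at was at 1841 on OT1 array 1, against 378 to 407 on the other OT1 arrays. H2-K1 97125_f_at was at 31.57 on OT1 array 1 (others 24.75 to 25.72) and at 23.04 on HY_high array 1 (others 50.52 to 57.17). Psmb10 was at 707 on HY_high array 1 (others 130 to 169). Array 2 was apart for H2-D1 97541_f_at in HY_high, at 37.89 (others 235 to 294), and for Tapbp 162104_f_at in OT1, at 47.75 (others 22.35 to 25.00). Tapbp 100154_at was at 535 on HY_high array 3 (others 150 to 183).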

How the results depend on the processing

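The HY_high against OT1 differences of H2-D1 97540_f_at (1.26 to 1.66) and 97541_f_at (3.01 to 4.66) stayed above 0 under all 24 alternatives. They passed limma with the replicate block (adjusted p = 0.00209 for both) and with array weights (0.0387 and 0.0101), and 97541_f_at also without HY_low array 2 (0.0378) and without the arrays numbered 2 (0.0326). The adjusted p reached 1.0 for both. Member calls in that comparison were 3 with the block, 2 with array weights and 0 to 1 when single arrays, or all arrays of 1 number, were left out. In HY_low against OT1 there was 1 with the block, and the H2-K1 97700_at difference was 1.74 with the floor at 8. No other alternative gave a member call, and the block changed none but these.

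Over all tested probe sets the block gave 30, 8 and 118 calls for HY_high against HY_low, HY_low against OT1 and HY_high against OT1, where the fit without it gave 2, 2 and 15. Array weights gave 7, 4 and 64. For the first and the last comparison, no filter gave 0 (with 257 probe sets at an unadjusted p under 0.05 in the filtered fit) and 9, and the floor 4 and 8. Median scaling gave 1 in the first, and fitting only both groups 8 in the last. Leaving out 1 array gave 1 to 4, 2 to 3 and 6 to 17, and leaving out number 1, 2, 3 or 4 of all groups gave 9, 4, 3 and 3 in the last and 1 in the first without number 2, 3 or 4.

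Small differences that did not pass changed sign. In HY_high against HY_low these were Psmb8 with quantile normalization (0.026) and, with array weights, Tap2 (-0.038) and Tap1 103035_at (0.0070) and 162278_r_at (0.23). Tapbp 162104_f_at in HY_high against OT1 gave 0.13 with array weights. With all arrays numbered 1 left out, Tap1 103035_at gave 0.064, and Psmb10 and Tapbp 162104_f_at 0.081 and 0.088 in HY_high against OT1. Without number 2, Tap1 162278_r_at gave 0.39 and H2-D1 101886_f_at -0.025 in HY_low against OT1, and without number 4, Tap2 gave -0.078, Tap1 103035_at 0.14 and Psmb10 0.11 in HY_high against OT1. With 1 array left out, HY_high against HY_low ranged over -0.49 to 1.16 for B2m, -0.022 to 1.63 for H2-D1 97541_f_at, -1.24 to 0.45 for H2-K1 97700_at, -1.0 to 0.17 for Psmb10, -0.10 to 0.72 for Psmb9, -0.21 to 0.15 for Tap1 103035_at, -0.44 to 0.25 for Tap1 162278_r_at, -0.43 to 0.82 for Tap2, and -0.16 to 0.93 and -0.62 to 0.16 for Tapbp 100154_at and 162104_f_at. HY_low against OT1 ranged over -0.44 to 1.16 for B2m, -0.23 to 0.80 for H2-D1 101886_f_at, -0.28 to 1.08 for Psmb10, -0.070 to 1.38 for Tap2, and -0.072 to 1.08 and -0.19 to 0.59 for Tapbp 100154_at and 162104_f_at. HY_high against OT1 ranged over -0.092 to 1.48 for B2m, -0.72 to 0.63 for Psmb10 and -0.29 to 0.23 for Tapbp 162104_f_at. The cause of these changes was not tested. Leaving out all arrays of 1 number was chosen after seeing the data.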
